A study of Rattus norvegicus with 6 samples.

Results

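The proteasome subunit genes were taken as every gene whose RefSeq rat symbol starts with Psma, Psmb, Psmc, Psmd, Psme, Psmf or Psmg, with the probe of highest mean signal standing for each gene. The rule found 46 genes among the 15168 named genes with a probe on the array, and all 46 passed the filter on dim probes. RefSeq lists 54 protein-coding symbols of this kind, and Psmb11, Psmb3l1, Psmb3l2, Psmb6l1, Psmd11, Psmg1, Psmg3 and Psmg4l1 had no matched probe. Psmc3ip, a recombination factor, and Psme3ip1 matched the rule by their letters and encode no subunit, but both were kept in the counts. RNA came from the hippocampus of adult male SD (Sprague Dawley) rats, 1 single-colour array per sample. The AD group, with 3 arrays, had received Aβ1-42 oligomers injected into the cerebral ventricles, so the model is an injected one. The Sham group, with 3 arrays, had received the vehicle into both lateral ventricles. The replicates were separate hippocampal samples, and the labels do not tie a sample to an animal, so the p-values measure only the spread between these samples.

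The proteasome is the barrel-shaped protease that degrades proteins tagged with ubiquitin. Its 20S core is a stack of rings in which Psma genes encode the outer alpha rings, which form the gate, and Psmb genes the inner beta rings, of which Psmb5, Psmb6 and Psmb7 carry the active sites. The 19S cap, encoded by the Psmc ATPases and the Psmd non-ATPases, binds ubiquitin chains, removes them and unfolds the substrate. Interferon exchanges the catalytic subunits for Psmb8, Psmb9 and Psmb10, which gives the immunoproteasome, and the Psme genes encode other caps that open the core. In neurons the proteasome turns over synaptic and misfolded proteins.

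The arrays were not equal in brightness. Sham replicate 3 was the dimmest, with a 75th percentile of 429.2 in processed signal units against 752.8 to 931.6 on the other 5 arrays. All AD arrays belonged to 1 scan and no Sham array did, so scan and group cannot be told apart. Sham replicates 1 and 2 were scanned on the same day as the AD arrays, and Sham replicate 3 on another day. A level below is the log2 processed signal minus the 75th percentile of its array, so that 0 is that percentile, and levels of different probes cannot be set against each other. A gene was called lower or higher at an adjusted p under 0.05 in limma's moderated test over all 22820 tested probes. All 6 hippocampal neuron markers with a probe were well above background on every array, and 1 of them was called lower.

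Of the 46 genes, 11 were called lower in AD and 0 were called higher, which is 23.9% lower against 8.39% of all tested probes called lower and 4.16% called higher. At an unadjusted p under 0.05, limma put 19 of the 46 genes lower and 0 higher, against 18.5% of all tested probes lower and 12.7% higher. The change was negative for 38 of the 46, against 51.3% of all tested probes. The 3 AD values lay below all Sham values for 24 genes, which is 52.2% against 23.4% over the whole table, and above them for 3 genes, Psmd5, Psme3 and Psme3ip1, against 15.6%. The median log2 change, AD minus Sham, was -0.24, against -0.01 over all tested probes. Relative to the mean of the Sham arrays, the median over the proteasome genes lay between -0.27 and -0.24 on the AD arrays and between -0.04 and 0.05 on the Sham arrays. No proteasome gene reached a fold of 2, against 2.25% of all tested probes with such a fold and an unadjusted p under 0.05, and the size of the change among the 11 ran from 1.29-fold to 1.59-fold. In whole tissue, fewer cells of a type and less RNA per cell cannot be told apart.

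**Figure D1:**
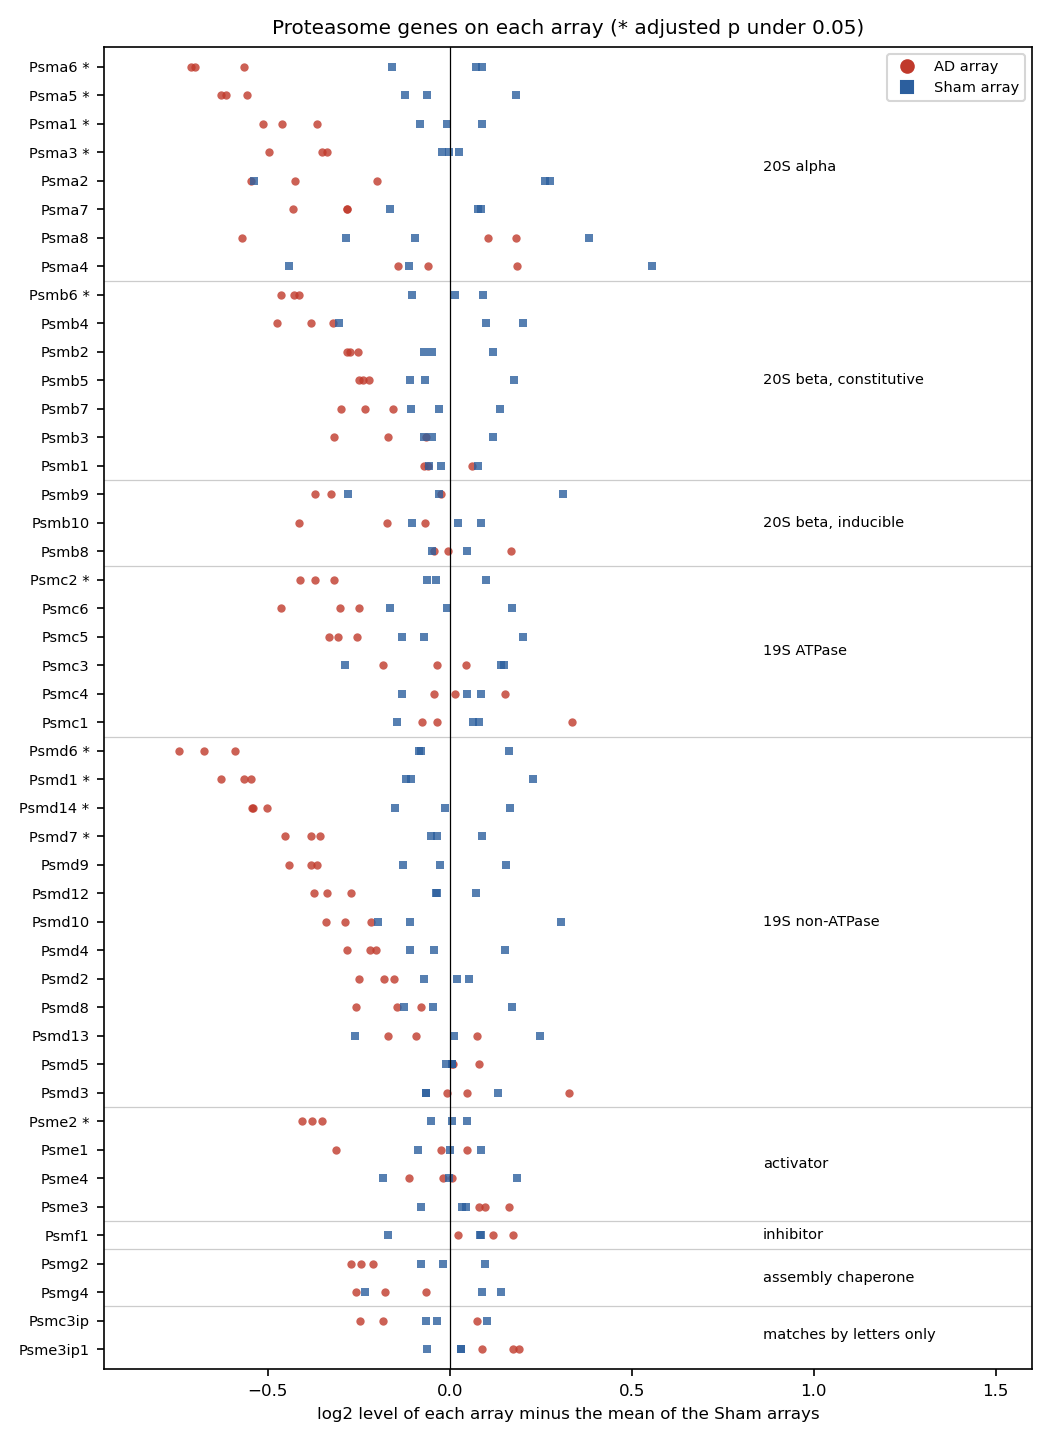
Each row is 1 proteasome gene and each point 1 array, placed by its log2 level minus the mean of the Sham arrays (circles AD, squares Sham), with genes grouped by their part of the complex and an asterisk for an adjusted p under 0.05. For the 11 genes with an asterisk, the 3 AD points lie to the left of every Sham point, and 8 of the 46 genes have a mean change above 0.

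Leaving out single arrays changed the calls. Without Sham replicate 3, which leaves the arrays of 1 scan day, 14 of the 46 proteasome genes (30.4%) were called lower and 0 higher. Over all tested probes the shares called were 10.8% lower and 8.72% higher. Without any other single array, that is AD replicate 1, 2 or 3 or Sham replicate 1 or 2, no proteasome gene was called in either direction, and 0 to 2 probes of the whole table were called. In those fits 13 to 18 of the 46 genes were lower and 0 higher at an unadjusted p under 0.05. Over all tested probes, 12.9% to 17.5% were lower and 8.41% to 11.3% higher. With scan as a random block no proteasome gene and no probe of the whole table was called. There 13 of the 46 genes were lower and 0 higher at an unadjusted p under 0.05, against 10.8% of all tested probes lower and 5.31% higher.

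For 9 of the 11 called genes the RefSeq promoter table (build GRCr8) held the sequence around the start of the gene, and 42 of all 46 genes had an entry. The antioxidant response element core TGACNNNGC, which factors such as Nfe2l1 and Nfe2l2 can bind, was looked for on both strands from 250 bases before to 50 bases after the start. It stood in 8 of the 42 promoters, or 19%, against 12.1% of 33465 promoters in the table. The CCAAT box, searched as CCAAT on both strands, stood in 22 of the 42, or 52.4%, against 37.5% of all. Among the 9 called genes, Psma3, Psmb6 and Psmd1 held the antioxidant core, and Psma1, Psma3, Psma5 and Psmd7 held a CCAAT box. Of the 33 genes with an entry that were not called, 5 held the core and 18 a CCAAT box. The 250 bases before the start are printed for the 3 called genes with the antioxidant core and for Psma5, which had a pair of CCAAT boxes. Capitals mark the matches on either strand, all 4 sequences are on the plus strand, and they run from 5′ to 3′. They lie at chr6:95219499-95219748 for Psma3, chr10:55737638-55737887 for Psmb6, chr9:94157721-94157970 for Psmd1 and chr2:198584255-198584504 for Psma5.
Psma3: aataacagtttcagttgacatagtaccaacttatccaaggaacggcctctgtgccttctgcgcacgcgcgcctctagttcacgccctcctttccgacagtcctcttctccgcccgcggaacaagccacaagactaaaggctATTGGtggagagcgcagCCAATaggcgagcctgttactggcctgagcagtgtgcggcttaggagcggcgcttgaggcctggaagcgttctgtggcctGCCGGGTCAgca
Psmb6: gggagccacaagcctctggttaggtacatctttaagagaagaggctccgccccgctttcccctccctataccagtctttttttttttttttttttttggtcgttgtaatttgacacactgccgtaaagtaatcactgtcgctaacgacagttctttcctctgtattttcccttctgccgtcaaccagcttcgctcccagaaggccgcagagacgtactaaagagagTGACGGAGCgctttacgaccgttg
Psmd1: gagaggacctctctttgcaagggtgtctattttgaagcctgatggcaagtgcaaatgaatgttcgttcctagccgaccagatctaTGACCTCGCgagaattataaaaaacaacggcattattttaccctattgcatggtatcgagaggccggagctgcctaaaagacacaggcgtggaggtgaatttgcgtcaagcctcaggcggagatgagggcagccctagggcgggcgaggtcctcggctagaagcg
Psma5: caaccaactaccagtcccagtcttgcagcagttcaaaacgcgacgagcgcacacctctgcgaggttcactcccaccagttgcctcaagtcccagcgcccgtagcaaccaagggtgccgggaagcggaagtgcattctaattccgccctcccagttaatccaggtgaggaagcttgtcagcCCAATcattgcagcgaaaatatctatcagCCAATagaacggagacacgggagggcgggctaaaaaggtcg
In Psma3 the antioxidant core was read on the minus strand as GCCGGGTCA, just before the start of the gene. Both CCAAT matches in the printed stretch lay further upstream, and another lay after the start, outside it. In Psmb6 the core was TGACGGAGC and in Psmd1 TGACCTCGC. A further core in Psmd1, TGACTGAGC, lay after the start, outside the printed stretch. A match is a run of letters and does not show that a factor was bound.

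The alpha ring held the most called genes of the core particle, 4 of 8, with a median log2 change of -0.39 and a negative change for all 8. Psma6, an alpha subunit, measured 3.53, 3.66 and 3.52 on the AD arrays and 4.32, 4.07 and 4.30 on the Sham arrays. Its groups did not overlap, and AD stood at 63.4% of Sham (log2 change -0.66 with an SE of 0.11 from 3 arrays in each group, adjusted p = 0.0224 in limma). In what follows a change is given as log2 change ± SE over the same arrays. Psma5 read 2.58, 2.64 and 2.57 in AD and 3.08, 3.14 and 3.38 in Sham. The AD arrays lay within a narrow band below all Sham arrays, at 66.0% of Sham (-0.60 ± 0.11, adjusted p = 0.027). Psma1 read 1.49, 1.64 and 1.54 in AD against 2.09, 1.93 and 1.999 in Sham. It fell to 73.3% of Sham (-0.45 ± 0.09, adjusted p = 0.0336). Psma3, whose promoter is printed above, read 1.20, 1.35 and 1.36 in AD and 1.70, 1.73 and 1.68 in Sham. The Sham arrays were nearly equal, and AD stood at 76.0% of them (-0.40 ± 0.09, adjusted p = 0.0381).

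The other 4 alpha genes did not pass the test. Psma7 had AD below Sham on every array at a change of -0.33 ± 0.11 (adjusted p = 0.094). Psma2 read 1.78, 1.56 and 1.43 in AD and 2.26, 2.24 and 1.44 in Sham, so that Sham replicate 3 lay among the AD arrays and the groups overlapped (-0.39 ± 0.24, adjusted p = 0.325). Psma2 was among the genes called lower when that array was left out. Psma4 also had a wide Sham group, with 2.59, 1.92 and 1.59, and its change was -0.01 ± 0.26. Psma8, the alpha subunit of the testis, was well above background on 3 of 6 arrays and its change was -0.10 ± 0.26.

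Of the 7 constitutive beta genes, Psmb6 alone was called, while all 7 changes were negative, with a median of -0.24. Psmb6, the caspase-like active site, read 0.18, 0.19 and 0.14 in AD and 0.62, 0.50 and 0.70 in Sham. The AD arrays were tightly placed below every Sham array, at 73.9% of Sham (-0.44 ± 0.09, adjusted p = 0.0333). Psmb5, the chymotrypsin-like site, read 2.32, 2.30 and 2.33 in AD and 2.44, 2.49 and 2.73 in Sham. Its groups did not overlap, and the change of -0.24 ± 0.10 did not pass (adjusted p = 0.178). Psmb7, the trypsin-like site, read 0.91, 0.84 and 0.98 in AD and 1.03, 1.11 and 1.28 in Sham, again without overlap, and its change was -0.23 ± 0.10 (adjusted p = 0.178). Among the structural beta genes, Psmb4 (-0.39 ± 0.15) and Psmb2 (-0.27 ± 0.09) had AD below Sham on every array, with adjusted p of 0.136 and 0.098. Psmb3 (-0.18 ± 0.11) and Psmb1 (-0.02 ± 0.09) had overlapping groups.

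None of the 3 inducible beta genes was called by limma, in either direction, and at an unadjusted p under 0.05 the count was also 0. Psmb9 read -1.83, -1.79 and -1.49 in AD and -1.49, -1.74 and -1.15 in Sham. Its groups overlapped, with the largest change of the class at -0.24 ± 0.18 (adjusted p = 0.407). Psmb10 read 3.27, 3.17 and 2.93 in AD and 3.36, 3.42 and 3.23 in Sham, also with overlap (-0.22 ± 0.12, adjusted p = 0.266). Psmb8 read -4.33, -4.54 and -4.50 in AD and -4.45 and -4.54 on Sham replicates 1 and 2. Its only spot on Sham replicate 3 was marked as an outlier and left out, so that its change of 0.04 ± 0.11 rests on 5 arrays (adjusted p = 0.841). That spot had a processed signal of 305.7, against 32.4 to 44.5 on the other arrays. In the authors' value table, which keeps a value for that array, the change of Psmb8 was -1.37 (adjusted p = 0.436).

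Each inducible gene was also set against the constitutive gene whose place it takes, as the difference of log2 levels on each array. This difference changed by 0.19 for Psmb8 and Psmb5 (exact permutation p = 0.1 over 10 splits of 5 arrays), by 0.195 for Psmb9 and Psmb6 (exact permutation p = 0.4) and by 0.01 for Psmb10 and Psmb7 (exact permutation p = 0.9). Adjusted over the 3 pairs, the two-sided p-values were 0.3, 0.6 and 0.9, and 0.1 is the smallest p the design allows. With so few arrays, no shift between inducible and constitutive sites could be shown or set aside.

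In the base of the 19S cap, 1 of 6 ATPase genes was called, and the class had a median of -0.18. Psmc2 read 4.21, 4.30 and 4.25 in AD and 4.56, 4.58 and 4.72 in Sham. The groups stood apart, with AD at 77.5% of Sham (-0.37 ± 0.09, adjusted p = 0.0467). Psmc6 (-0.34 ± 0.12, adjusted p = 0.115) and Psmc5 (-0.30 ± 0.11, adjusted p = 0.133) had no overlap either. Psmc3, Psmc4 and Psmc1 had overlapping groups and changes of -0.06, 0.04 and 0.08.

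The non-ATPase genes held 4 of the 11 calls among 13 genes, with a median of -0.28 and AD below Sham without overlap for 9. By structure, 3 of 7 lid genes and 1 of 3 base genes were called, and none of the 3 genes for assembly chaperones that carry a Psmd name, Psmd5, Psmd9 and Psmd10. Differences between these classes were not tested.

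Psmd6, a lid subunit, had the largest change of all 46 genes. It read 4.01, 4.10 and 3.94 in AD and 4.61, 4.60 and 4.85 in Sham. AD stood at 62.9% of Sham, with every AD array lower (-0.67 ± 0.11, adjusted p = 0.0223). Psmd14, the lid enzyme that cuts ubiquitin chains off the substrate, read -0.41, -0.37 and -0.41 in AD and -0.02, 0.12 and 0.30 in Sham. The AD arrays were nearly equal and stood at 69.3% of Sham (-0.53 ± 0.11, adjusted p = 0.0324). Psmd7, the partner of Psmd14 in the lid, read -0.42, -0.44 and -0.51 in AD and -0.10, -0.11 and 0.03 in Sham. Both lid partners thus had separate groups, and Psmd7 stood at 75.9% of Sham (-0.40 ± 0.09, adjusted p = 0.0377). Psmd1, the large scaffold of the base, read 3.68, 3.66 and 3.60 in AD and 4.12, 4.11 and 4.45 in Sham. AD stood at 66.9% of Sham (-0.58 ± 0.12, adjusted p = 0.0344). Sham replicate 3, scanned on another day, was the highest array for Psmd1. The same held for the called genes Psma5, Psmb6, Psmc2, Psmd6, Psmd7, Psmd14 and Psme2, but not for Psma1, Psma3 and Psma6.

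Psmd12 and Psmd9 lay just outside the threshold. Their changes were -0.33 ± 0.08 (adjusted p = 0.0535) and -0.40 ± 0.10 (adjusted p = 0.0544), both without overlap, and both were called when only probes well above background on all 6 arrays were tested. A second, dimmer probe of Psmd9 gave -0.09 ± 0.09. Psmd4, a ubiquitin receptor (-0.24 ± 0.10), Psmd2 (-0.20 ± 0.08) and Psmd10 (-0.28 ± 0.15) had AD below Sham on every array without passing. Psmd8 (-0.16), Psmd13 (-0.06), Psmd5 (0.03) and Psmd3 (0.12) completed the class.

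**Figure D2:**
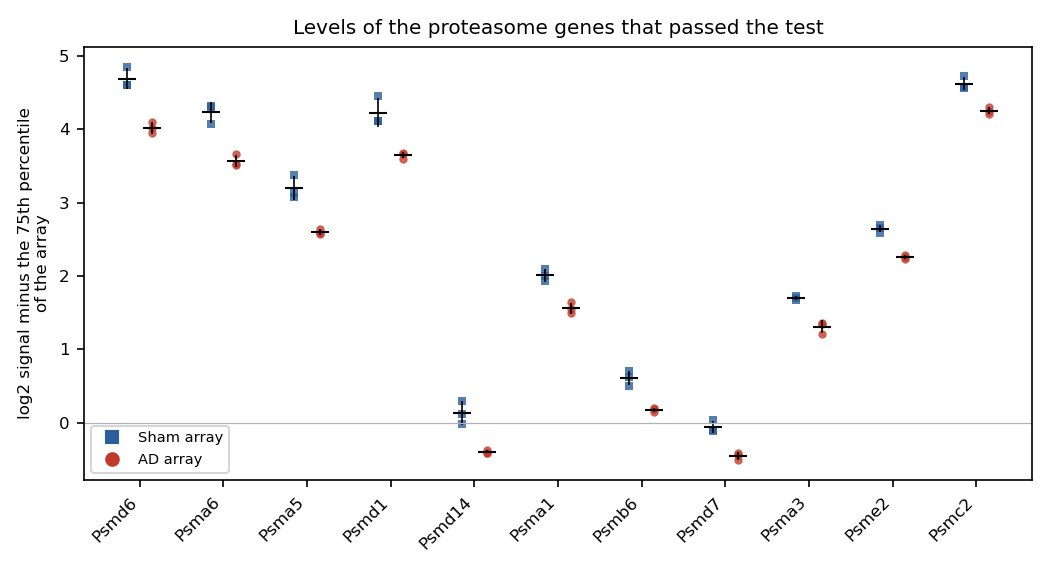
The log2 level (signal minus the 75th percentile of the array) of the 11 called genes is drawn for each Sham array (squares) and AD array (circles), with bars for the mean and SD of 3 arrays. The groups stand apart for every gene, from Psmd6 at -0.67 to Psmc2 at -0.37, and heights of different genes are not comparable because each has its own probe.

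The activators did not move as 1 group. Psme2, a subunit of the interferon-inducible cap, read 2.26, 2.29 and 2.24 in AD and 2.65, 2.59 and 2.69 in Sham. It fell to 76.9% of Sham with little spread in either group (-0.38 ± 0.08, adjusted p = 0.0351). Psme1, which builds the same ring with Psme2, read 2.38, 2.09 and 2.45 in AD and 2.49, 2.41 and 2.32 in Sham. Its groups overlapped, and its change was -0.10 ± 0.12 (adjusted p = 0.629). Psme3, the nuclear activator, read -0.96, -0.98 and -0.89 in AD and -1.01, -1.13 and -1.02 in Sham. All AD arrays were above Sham, yet the change of 0.11 ± 0.08 did not pass (adjusted p = 0.395).

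For Psme4, a large single-chain activator, the probes disagreed. The brighter probe read 1.17, 1.08 and 1.20 in AD and 1.01, 1.19 and 1.38 in Sham, with overlap and a change of -0.04 ± 0.12. The dimmer probe, matched to the same transcript record, read -1.26, -1.36 and -1.24 in AD and -1.93, -1.91 and -1.58 in Sham. There AD was higher on every array and the probe was called higher, at 143.6% of Sham (0.52 ± 0.12, adjusted p = 0.0444). Psmf1, an inhibitor of the core, read 0.93, 0.88 and 0.78 in AD and 0.85, 0.84 and 0.59 in Sham (0.11 ± 0.11, adjusted p = 0.542). Its dimmer probe had the opposite sign, with a change of -0.26 ± 0.10 (adjusted p = 0.136), so no direction is given for either gene.

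The assembly chaperones of the core were measured as Psmg2 and Psmg4, and neither was called. Psmg2 read -1.60, -1.56 and -1.62 in AD and -1.43, -1.25 and -1.37 in Sham, without overlap (-0.24 ± 0.09, adjusted p = 0.117). Psmg4 had overlapping groups and a change of -0.17 ± 0.13, with -0.13 ± 0.11 for its second probe. Of the pair that matched by letters, Psme3ip1 read -0.84, -0.86 and -0.94 in AD and -1.001, -1.09 and -1.002 in Sham (0.15 ± 0.08, adjusted p = 0.263), and Psmc3ip had a change of -0.12 ± 0.12.

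The change of a probe moved with its signal over the whole table, and proteasome probes were mostly bright. The tested probes were divided by mean signal into 4 bins of 5705. In the brightest bin the median log2 change of all probes was -0.15 and 17.4% were called lower, against 0.06 and 3.14% in the dimmest. The brightest bin held 26 of the 46 proteasome genes, with a median of -0.28 and 8 called lower, or 30.8%. The next bin held 18 genes, with a median of -0.14 and 3 called lower (16.7%), against 0.01 and 8.29% of all its probes. The dimmest bin held the other two genes, Psma8 and Psmb8. After quantile normalization, which gives all arrays the same distribution, the median over all probes was within 0.01 of 0 in each bin, and the proteasome median was -0.13 in the brightest bin and -0.14 in the next. The part of the signal dependence in the calls of single genes was not tested.

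**Figure D3:**
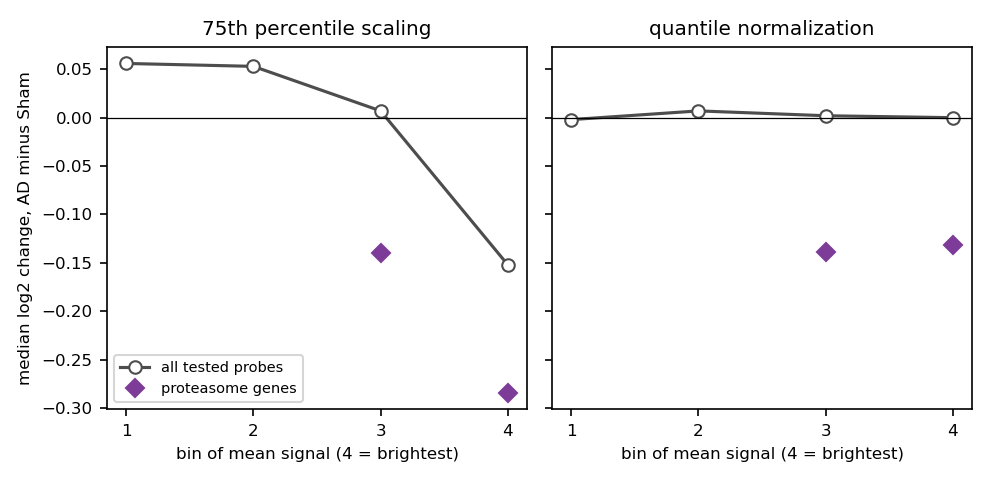
The median log2 change, AD minus Sham, is drawn against 4 bins of mean signal for all tested probes (circles) and for the proteasome genes of the 2 brighter bins (diamonds), under the 75th percentile scaling (left) and after quantile normalization (right). All probes drop to -0.15 in the brightest bin on the left and stay near 0 on the right, while the proteasome genes lie below all probes in both panels.

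The number of calls changed with the scaling, over the whole table as well. Under quantile normalization 6 proteasome genes were called lower, with the values the authors deposited 6, after normexp background correction 6, with the percentile taken over detected probes 5, and with median scaling 12. None of these called any of the genes higher. The share of all tested probes called lower was 6.87%, 6.83%, 6.39%, 5.49% and 9.43% in the same order, against 13%, 13%, 13%, 10.9% and 26.1% of the proteasome genes. Psma5, Psma6, Psmd6 and Psmd14 were called lower under each of these settings. The log2 change of Psmd6 ran from -0.46 after quantile normalization to -0.72 with median scaling, and that of Psmd14 from -0.45 with the percentile over detected probes to -0.58 with median scaling. The median of all tested probes itself was moved to 0.07 by the percentile over detected probes and to -0.15 by normexp correction. Relative to that shift, the difference of the proteasome median from that of all probes was -0.23 as reported, -0.10 after normexp correction and -0.13 after quantile normalization.

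**Figure D4:**
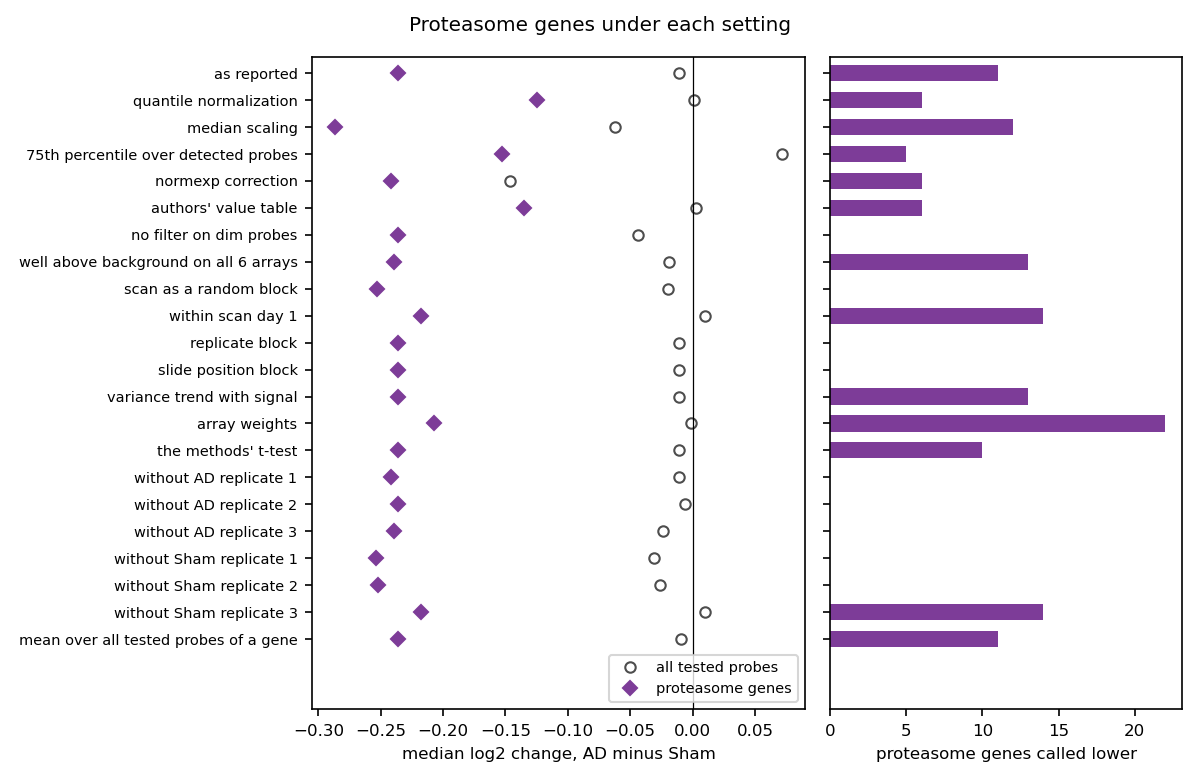
The left panel gives the median log2 change, AD minus Sham, of the proteasome genes (diamonds) and of all tested probes (circles) under each setting, and the right panel the number of proteasome genes called lower in it. The diamonds stay between -0.29 and -0.13, to the left of the circle in each row, while the bars run from 0 to 22.

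Other genes of the ubiquitin-proteasome pathway were read from a list of 45, of which 38 had a probe and 37 were tested. Of these, 8 (21.6%) were called lower, against 8.39% of all probes, and 1 was called higher, with a median of -0.11. The factors that work next to the proteasome included Pomp, the maturation factor of the core, at -0.49 ± 0.10 (adjusted p = 0.0332), and Txnl1, a thioredoxin bound to the 19S cap, at -0.56 ± 0.10 (adjusted p = 0.0278). Nfe2l1, a transcription factor that drives proteasome genes, read -0.98, -0.90 and -1.02 in AD and -0.40, -0.36 and -0.25 in Sham. It was lower on every AD array, at 64.5% of Sham (-0.63 ± 0.09, adjusted p = 0.0199). Nfe2l2, its relative in the oxidative stress response, had overlapping groups (0.07 ± 0.11, adjusted p = 0.68). Ngly1, the enzyme that processes Nfe2l1, had a change of -0.22 ± 0.09 (adjusted p = 0.157).

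Ligases and shuttle factors were also among the calls. Ube4a, a ubiquitin chain elongation factor, read 1.98, 1.997 and 1.97 in AD and 2.62, 2.63 and 2.70 in Sham. Both groups were tight and stood apart, with AD at 63.0% of Sham (-0.67 ± 0.08, adjusted p = 0.0183). Stub1, the ligase that works with heat shock proteins, was lower by -0.47 ± 0.10 (adjusted p = 0.0383), and Ubqln1, a shuttle receptor, by -0.39 ± 0.09 (adjusted p = 0.0438). Uchl3, a ubiquitin hydrolase, was lower by -0.55 ± 0.13 (adjusted p = 0.0454), with -0.44 ± 0.13 for its second probe. After quantile normalization Nfe2l1 (-0.65), Ube4a (-0.53), Txnl1 (-0.36) and Pomp (-0.31) were still called lower. Stub1 (-0.28, adjusted p = 0.0609), Ubqln1 (-0.27, adjusted p = 0.0758) and Uchl3 (-0.38, adjusted p = 0.0642) were not. None of the 6 ubiquitin and E1 enzyme genes was called by limma at the adjusted threshold, with Rps27a (0.55 ± 0.16, adjusted p = 0.0713) the only one of them with an unadjusted p under 0.05.

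Among genes that act with the immunoproteasome, B2m was the 1 gene of the list called higher. B2m, the light chain of MHC class I, read 4.10, 3.92 and 3.98 in AD and 3.48, 3.64 and 3.62 in Sham. It was higher on every AD array, at 133.6% of Sham (0.42 ± 0.10, adjusted p = 0.0421). In limma B2m was still called higher after quantile normalization (0.62, adjusted p = 0.024) but not after normexp correction (0.42, adjusted p = 0.0615). Tap1 (0.15), Tap2 (-0.11), Tapbp (0.33) and Irf1 (-0.23) were not called.

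Markers of several cell types also differed between the groups. The summed linear level of the 4 interneuron markers, in units of the 75th percentile of each array, was 21.4 to 26.6 in AD and 44.04 to 48.47 in Sham, with Gad1 and Vip called lower. That of the 6 neuron markers was 32.8 to 34.0 in AD and 35.2 to 36.5 in Sham, with Syt1 called lower. Of the neuron markers not called, Snap25 (-0.14), Prox1 (-0.21) and Nrgn (-0.06) had negative changes, and Zbtb20 (0.24) and Neurod6 (0.16) positive ones. The 6 choroid plexus markers with a probe summed to 80.5 to 132.6 in AD and 26.9 to 101.4 in Sham. Ttr, whose groups overlapped (0.99 ± 0.48), dominated that sum. Cldn2 of the same list did not pass the filter on dim probes. Of the 5 tested, none was called by limma and 3 were higher at an unadjusted p under 0.05, with a median change of 2.79. The 5 skeletal muscle markers summed to 0.85 to 4.07 in AD and 0.42 to 0.64 in Sham, with 1 called higher. By limma 4 of these 5 were higher at an unadjusted p under 0.05, with a median change of 2.53. None of the 6 microglia or 4 astrocyte markers was called or had an unadjusted p under 0.05. The microglia sum was 7.26 to 11.25 in AD and 9.51 to 11.58 in Sham. The astrocyte sum was 62.96 to 80.14 in AD and 80.32 to 90.75 in Sham, without overlap. Aqp4 (-0.24) and Slc1a3 (-0.32) dominated that sum. Gfap (0.95, higher on every AD array) and Aldh1l1 (0.16) had positive changes. Of 5 oligodendrocyte markers 2 were called higher, while their sum was 85.63 to 105.62 in AD and 99.4 to 149.66 in Sham. Of 5 tested leukocyte markers 2 were called lower and 1 higher, and the 6 with a probe summed to 0.52 to 0.58 in AD and 0.65 to 0.73 in Sham. The part of these cell types in the proteasome differences was not tested.

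Several proteasome genes have copies in the genome. RefSeq named 46 pseudogene entries after proteasome genes, and 7 of the 11 called genes had at least 1, as did 12 of the 35 not called. Psmb3, which was not called, had the most, with 7. The called genes Psma6 and Psme2 had 5 and 3, and Psme3, not called, had 4. Of the called genes, Psma1, Psmc2, Psmd6 and Psmd7 had none. Whether any probe also bound RNA of such a copy was not tested.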

How the data were processed

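Hippocampal mRNA from 6 rat tissue samples (3 AD, 3 Sham, grouped by sample title) was measured on 1-colour Agilent rat arrays of 44254 spots. Per the file headers, the arrays were scanned and the spot intensity was extracted with Agilent Feature Extraction (11.0.1.1 in the submitters' processing notes), which subtracts background. The deposited value table holds log2 values whose scaling is not given in the sources used here. Its column medians were all 6.57, and its columns titled AD replicates 2 and 3 matched the scanner values of AD replicates 3 and 2 (r = 0.9942 and 0.9989), which leaves the group comparison as it is.

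Control and outlier spots were left out (400 to 559 outlier spots per array), spots of a probe were averaged as log2 processed signal, and the array's 75th percentile was subtracted. Probes well above background on at least 3 of 6 arrays were tested (22820 of 30367), which held for 70.7 to 79.7% of probes on any single array. AD was compared with Sham by limma 3.58.1 in R 4.3.3 (two-sided), p-values were adjusted by Benjamini-Hochberg across the tested table, and 0.05 was the threshold. The number of arrays, 3 per group, limits the precision. The fit was tested on simulated data. Symbols came from RefSeq (GRCr8) by accession: 15252 of 26997 accessions matched, and 12362 probes stayed unnamed. Of Psmb8, 5 arrays entered the fit.

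Alternatives changed scaling, background correction, filter, blocks, weights, test, probe choice and samples. For normexp (offset 50), the median spot signal was used in place of the mean signal that had been planned. Slide and scan were the same division of the arrays, so 1 random block served both. Named genes were the catalytic, inducible, activator and inhibitor genes, every called member, and the largest change of each class. Members and lists were chosen with earlier results of these data known. Of the pathway list, 1 gene that is in the counts is not reported here.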

Additional observations from a re-analysis of the deposited data

How the results depend on the processing

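The median log2 change of the proteasome genes was negative under every alternative run, and no called gene changed sign. It was -0.125 after quantile normalization, -0.29 with median scaling, -0.15 with the percentile over detected probes and -0.135 in the authors' value table, and leaving out single arrays gave -0.25 to -0.22. Genes called lower went from 11 to 6 (quantile normalization, normexp correction and the authors' value table, each), 5 (percentile over detected probes) and 22 (array weights, with 1 called higher, Psme3ip1, and weights of 8.86 for AD replicate 1 and 0.164 for Sham replicate 3). No gene was called without a filter on dim probes. There 18 of the 46 were lower and 0 higher at an unadjusted p under 0.05, against 13.9% and 9.44% of all probes. None was called with scan as a random block either (13 of the 46 lower and 0 higher unadjusted, consensus correlation 0.492). At the thresholds of the methods' t-test (fold of at least 2, unadjusted p under 0.05) none was called. The methods' t-test after Benjamini-Hochberg called 10 lower. Leaving out 1 array gave 0 to 14 genes lower and 0 higher, 0 to 4453 probes over the whole table, and in the pathway list 0 to 11 lower and 0 to 1 higher. Over the whole table, 2864 calls became 1768 after normexp correction, 4453 within 1 scan day, 8771 with array weights, 1845 with the methods' t-test after Benjamini-Hochberg and 329 at its own thresholds, and 0 without a filter on dim probes, where the lowest adjusted p was 0.05, or with scan as a random block, where it was 0.173. The share of higher calls moved from 33.1% to 53.2% with the percentile over detected probes, 17.5% with normexp correction, 38.3% with quantile normalization, 24.3% with median scaling and 44.7% within the scan day. In the pathway list, 8 lower and 1 higher became 5 and 2 (quantile normalization, percentile over detected probes and the authors' value table, each), 14 and 5 (array weights) and 0 and 0 (no filter, scan as a random block, thresholds of the methods' t-test), with 0 higher also under median scaling, normexp correction and the methods' t-test after Benjamini-Hochberg. Under quantile normalization, normexp correction and the authors' value table, 5 of the 11 called genes were no longer past the threshold in each, and 6 with the percentile over detected probes. The cause of these shifts was not tested. Whether the replicate numbers pair the samples is not known. Same-numbered deviations from the group means correlated at 0.03, 0.07 and 0.14. AD replicate 1 correlated best with Sham replicate 2, while AD replicates 2 and 3 correlated best with the Sham replicate of their own number. Deviations from means of 3 arrays cannot decide the question. With the replicate block, 0 proteasome genes, 0 pathway genes and 0 probes were called. At an unadjusted p under 0.05, 15 of the 46 proteasome genes and 16.3% of all probes were lower with that block. Chosen after seeing the data, a variance trend with signal called 13 genes lower and 3468 probes. A slide position block, also chosen after seeing the data, called 0 proteasome genes, 0 pathway genes and 0 probes. With it, 16 of the 46 proteasome genes and 16.9% of all probes were lower at an unadjusted p under 0.05. With 1 array left out of a group, the spread was pooled over the remaining arrays. Signal over background limits Psma8 and its other probes, and Psmb8 is limited by its outlier spot on Sham replicate 3. The second probes of Psmd9, Psme4, Psmf1 and Psmg4 were well above background on every array.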
